A study of Homo sapiens with 12 samples.

Results

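The 45 genes described here carry cells through DNA replication and mitosis. They were chosen by function, as cyclins, mitotic kinases, kinetochore and replication genes, and matched by symbol. All 45 were found among the 63925 gene IDs of the count files, and 44 of them held enough counts to be tested. Polyadenylated RNA had been sequenced from 12 neural cultures grown from the human embryonic stem cell lines H9 and H1, both established lines. Every culture had been differentiated for 10 weeks by inhibition of both branches of SMAD signalling, from stem cells kept on mouse feeder cells, and held in a neural medium with BDNF and GDNF. The groups were H9 with DMSO vehicle, H9 with 1 µM dexamethasone, H1 with DMSO vehicle and H1 with 1 µM dexamethasone, each exposed for 6 h and each made of 3 sister cultures. Each genotype is a single line and the labels name no separate differentiation runs, so each p-value rests on the variation among sister cultures only, and line and differentiation cannot be told apart.

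Cells that leave the cycle to become neurons shut down these genes, while neural progenitors and other dividing cells keep them on. Before S phase, MCM helicases are loaded onto DNA by CDC6 and CDT1, and E2F transcription factors drive the genes of replication. The DREAM and MMB complexes and FOXM1 act on a later set of genes, those of mitosis. They often do so through CCAAT boxes and the cell cycle genes homology region (CHR) of the promoters. Dexamethasone is a synthetic agonist of the glucocorticoid receptor, a transcription factor.

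Total counts were 14751168 in H9 vehicle culture 3 and 20871163 to 27505804 in the other 11 libraries. H9 vehicle culture 3 stood apart, with 0.607% of its counts on mitochondrially encoded genes against 2.91% to 5.64% elsewhere. In it, 17 of the 44 tested members were at their lowest level of the 3 H9 vehicle cultures, 19 at their highest and 8 in between, so results that rest on it are given with and without it. MAP2, listed as a neuron marker, was at a group mean of 1512 to 1810 normalised read count (CPM). VIM, listed as a progenitor marker, was at 2892 to 3340 CPM. The pluripotency gene POU5F1 was listed at 0. Some genes that neural or dividing cells use were also listed at or near 0 in every library. The tubulin gene TUBB and the progenitor gene SOX2 held 0 counts in all 12 libraries and TUBB3 held 125. A count at or near 0 in these files therefore need not mean that a gene was silent.

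The members divided the lines. Of all counts, 0.0457% to 0.0570% fell on them in H9 cultures and 0.184% to 0.198% in H1 cultures. Their summed level was 467 to 542 CPM in H9 vehicle, 532 to 589 CPM in H9 dexamethasone, 1795 to 1893 CPM in H1 vehicle and 1915 to 1954 CPM in H1 dexamethasone cultures. Levels here are CPM scaled by the TMM method, which corrects for library composition, and differences are log2 fold changes of H9 minus H1 with their standard error. In the vehicle cultures 43 of the 44 tested members were lower in H9 at an adjusted p under 0.05 in edgeR, where 21.2% of all 17819 tested genes were. In the dexamethasone cultures, which are separate libraries, 42 of 44 were lower in H9, again against 21.2% of all genes. The median difference of the members was −2.17 with vehicle and −2.08 with dexamethasone, while the medians of all tested genes were 0.03 and −0.01. No member was higher in H9 at that threshold, where 25.7% and 22.5% of all genes were, and 41 were lower in H9 under both treatments, against 14.7% of all tested genes. All 3 H9 libraries lay below all 3 H1 libraries for 43 members with vehicle (27.2% of all genes) and for 43 with dexamethasone (34.5%), the exceptions being INCENP and CCNE1. In bulk RNA, fewer dividing cells and less RNA per dividing cell cannot be told apart.

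**Figure D1:**
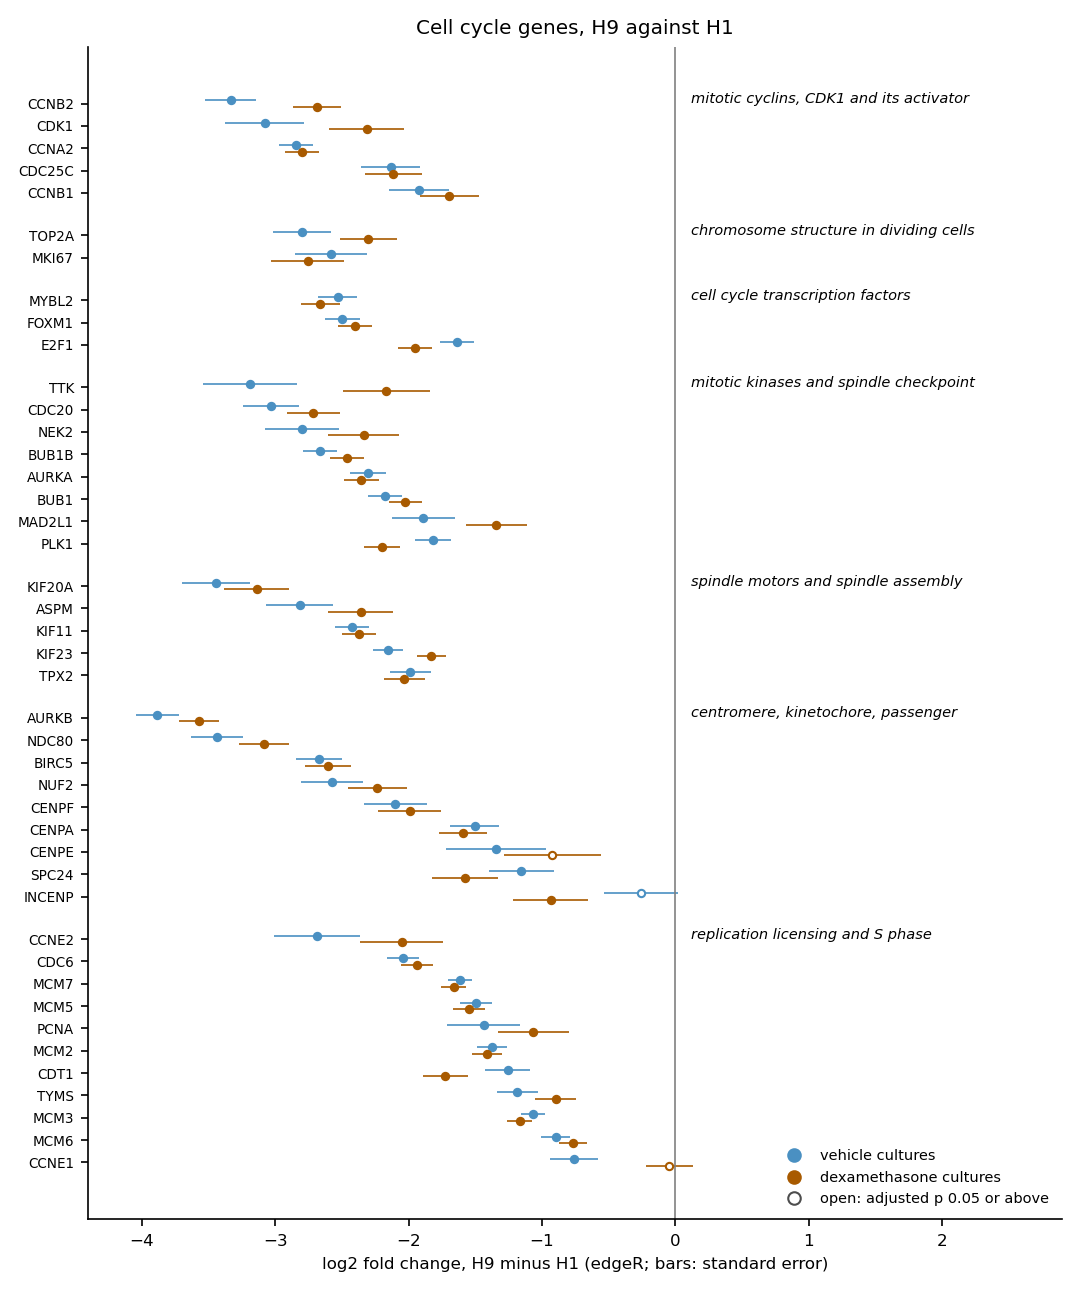
Difference between H9 and H1 of 43 cell cycle genes (horizontal axis, log2 fold change of H9 minus H1 from edgeR, bars give the standard error) in the vehicle cultures (blue) and the dexamethasone cultures (brown), grouped by role; open points had an adjusted p of 0.05 or above. SPC25, with 0 or 1 count per H9 group, is not drawn. All points lie below 0, and the replication and S phase genes lie nearest to it, with a median over 11 genes of −1.37 with vehicle.

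The vehicle differences overlapped between roles, and are given role by role. Those of licensing and S phase ran from −0.76 to −2.69, those of the mitotic kinases from −1.82 to −3.19 and those of the spindle genes from −1.99 to −3.44. The 11 tested genes of licensing and S phase had a median of −1.37 with vehicle and −1.41 with dexamethasone. The other 33 tested members had medians of −2.53 and −2.31. With vehicle, 2 of the 11 S phase genes and 24 of the 33 others were at least 4-fold lower in H9. By role, the vehicle medians were −2.84 for the 5 mitotic cyclins, CDK1 and its activator, −2.69 for MKI67 and TOP2A, −2.50 for the 3 transcription factors, −2.48 for the 8 mitotic kinases and checkpoint proteins, −2.42 for the 5 spindle proteins and −2.34 for the 10 centromere, kinetochore and passenger proteins. The difference between role groups was not tested.

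The promoters of the members share short motifs that the choice of genes did not use. They are shown because members that were low together in H9 can then be compared letter by letter. RefSeq promoter windows on GRCh38.p14, 250 bases before to 50 after a start site, were found for 38 of the 45 members; FOXM1, AURKA, CCNE2, MCM5, TTK, TPX2 and BIRC5 had none. The motifs searched on both strands were the CCAAT box (CCAAT), the CHR core (TTTGAA) and E2F sites (TTTCCCGC and TTTGGCGC). The sequences below run 5′ to 3′ on the strand of the gene, from 250 bases before to 5 after the start, with each motif in capitals in either orientation; no base lies in more than 1 motif. They are CCNB2 (chr15:59104896-59105150, plus strand) and CCNB1 (chr5:69166900-69167154, plus strand), cyclins of mitosis, and NDC80 (chr18:2571307-2571561, plus strand) and SPC25 (chr2:168890426-168890680, minus strand), kinetochore genes. MCM6 (chr2:135876439-135876693, minus strand), E2F1 (chr20:33686381-33686635, minus strand) and CCNE1 (chr19:29811741-29811995, plus strand) act before or in S phase, and the window of CCNE1 holds none of the motifs.
CCNB2: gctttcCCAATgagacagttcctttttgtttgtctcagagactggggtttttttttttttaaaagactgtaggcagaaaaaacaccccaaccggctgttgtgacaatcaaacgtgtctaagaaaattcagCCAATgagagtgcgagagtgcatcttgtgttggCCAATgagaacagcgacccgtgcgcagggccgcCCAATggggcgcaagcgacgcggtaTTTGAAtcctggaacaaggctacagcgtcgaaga
CCNB1: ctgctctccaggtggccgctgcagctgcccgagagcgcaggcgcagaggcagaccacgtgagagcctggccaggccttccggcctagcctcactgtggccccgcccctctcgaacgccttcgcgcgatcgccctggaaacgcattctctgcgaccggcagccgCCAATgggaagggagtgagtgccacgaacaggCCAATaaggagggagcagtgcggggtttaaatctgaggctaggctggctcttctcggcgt
NDC80: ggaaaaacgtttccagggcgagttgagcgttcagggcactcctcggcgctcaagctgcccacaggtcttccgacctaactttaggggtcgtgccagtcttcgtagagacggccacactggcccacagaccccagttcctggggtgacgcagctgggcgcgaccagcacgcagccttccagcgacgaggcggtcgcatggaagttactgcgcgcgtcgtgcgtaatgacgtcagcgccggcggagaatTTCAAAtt
SPC25: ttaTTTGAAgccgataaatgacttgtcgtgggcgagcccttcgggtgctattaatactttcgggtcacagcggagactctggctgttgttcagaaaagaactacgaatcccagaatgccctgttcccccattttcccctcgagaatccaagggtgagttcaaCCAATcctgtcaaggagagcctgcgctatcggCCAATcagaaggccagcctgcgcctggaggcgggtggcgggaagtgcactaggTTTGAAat
MCM6: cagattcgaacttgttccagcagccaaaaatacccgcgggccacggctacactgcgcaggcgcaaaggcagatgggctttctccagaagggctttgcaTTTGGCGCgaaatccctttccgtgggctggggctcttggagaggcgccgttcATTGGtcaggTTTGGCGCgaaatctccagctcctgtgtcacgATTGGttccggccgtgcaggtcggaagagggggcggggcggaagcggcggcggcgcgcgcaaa
E2F1: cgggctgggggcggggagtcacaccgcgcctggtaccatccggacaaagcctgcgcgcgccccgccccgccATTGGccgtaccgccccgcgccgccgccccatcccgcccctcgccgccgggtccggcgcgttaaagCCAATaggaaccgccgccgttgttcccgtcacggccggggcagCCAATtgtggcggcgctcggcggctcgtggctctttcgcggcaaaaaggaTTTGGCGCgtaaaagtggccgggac
CCNE1: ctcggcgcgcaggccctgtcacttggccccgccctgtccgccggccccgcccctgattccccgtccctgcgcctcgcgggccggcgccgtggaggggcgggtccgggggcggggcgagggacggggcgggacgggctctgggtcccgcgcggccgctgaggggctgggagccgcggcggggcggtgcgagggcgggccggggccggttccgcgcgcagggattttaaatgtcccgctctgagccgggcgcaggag

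A CCAAT box stood in the windows of 29 of the 38 members, or 76.3%, and of 39.7% of the 27305 genes with a window of that length. The CHR core stood in 18 members, or 47.4%, against 18.2% of all genes. An E2F site of either form stood in 9 members, or 23.7%, against 2.75%. CCAAT and CHR occurred together in 15 members, or 39.5%, against 7.26%. E2F sites and CHR cores are given by role, with no test between roles. An E2F site was found in 7 of the 10 licensing and S phase genes with a window, and the CHR core in 0 of those 10. CCAAT boxes stood in 6 of those 10, in 6 of the 9 centromere and kinetochore genes and in 5 of the 6 mitotic kinase and checkpoint genes with a window. All 5 windows of the mitotic cyclin group held a CCAAT box and 3 held a CHR core. In the vehicle cultures the 18 members with a CHR core had a median line difference of −2.58, and the 19 tested members without it a median of −1.62. The 9 members with an E2F site had a median of −1.44, and the 28 without it one of −2.55. Licensing and S phase genes made up 7 of the 9 with an E2F site and 0 of the 18 with a CHR core. Motif and role therefore cannot be told apart in these medians. The motifs are matches of letters in a fixed window, given as a description and not tested. Only the exact letters given were searched, so a window without a match may still hold a variant site.

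All 11 tested genes of licensing and S phase were lower in H9 with vehicle and 10 with dexamethasone. MCM2, a subunit of the replicative helicase, was at 35.2, 29.7 and 39.4 CPM in the H9 vehicle libraries, 35.1, 34.1 and 37.5 CPM in H9 dexamethasone, 87.4, 89.5 and 92.5 CPM in H1 vehicle and 92.3, 87.6 and 103.9 CPM in H1 dexamethasone. No H9 library reached an H1 library, and the differences were −1.37 ± 0.11 with vehicle (adjusted p = 2.36e-06) and −1.41 ± 0.11 with dexamethasone (adjusted p = 1.77e-06). The 5 MCM genes among the 45 members ran from −0.90 ± 0.11 for MCM6 to −1.61 ± 0.09 for MCM7 with vehicle. CDC6 and CDT1, which load the helicase, were lower in H9 by 4.11-fold and 2.39-fold with vehicle. Of the exon bases of MCM2, 23.6% are shared with genes on the opposite strand, and the strand setting of the counting is not given in the sources used here.

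PCNA, the sliding clamp of DNA polymerases, showed the effect of H9 vehicle culture 3. Its level was 57.4, 54.1 and 20.9 CPM in H9 vehicle, 58.0, 62.6 and 51.5 CPM in H9 dexamethasone, 112, 125 and 123 CPM in H1 vehicle and 117, 116 and 128 CPM in H1 dexamethasone. Culture 3 was the low library of its group, and without it the H9 vehicle cultures lay among the H9 dexamethasone cultures. The line difference was −1.44 ± 0.27 with vehicle (adjusted p = 0.00112) and −1.06 ± 0.27 with dexamethasone (adjusted p = 0.00707). Without culture 3 the vehicle difference was −1.11 ± 0.09 (adjusted p = 2.36e-08). TYMS, which makes thymidylate for DNA, differed by −1.18 ± 0.15 and −0.90 ± 0.15. TYMS shares 46.6% of its exon bases with ENOSF1 and TYMSOS on the opposite strand.

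The 2 E-type cyclins, which activate CDK2 at the entry into S phase, bounded the group. CCNE2 had the largest vehicle difference of the S phase genes. It was at 4.14, 2.51 and 0.952 CPM in H9 vehicle, 3.85, 4.47 and 3.03 CPM in H9 dexamethasone, 15.2, 17.7 and 18.1 CPM in H1 vehicle and 15.6, 17.0 and 14.4 CPM in H1 dexamethasone. All H9 libraries lay far below the H1 libraries, by −2.69 ± 0.32 with vehicle and −2.05 ± 0.31 with dexamethasone. CCNE2 shares 37.1% of its exon bases with INTS8 and AC087752.4 on the opposite strand. CCNE1 had the smallest difference. It was at 3.33, 3.55 and 2.11 CPM in H9 vehicle, 4.20, 4.39 and 4.45 CPM in H9 dexamethasone, 5.26, 5.43 and 4.77 CPM in H1 vehicle and 4.06, 4.70 and 4.69 CPM in H1 dexamethasone. The vehicle groups did not overlap (−0.76 ± 0.18, adjusted p = 0.00453), but the dexamethasone groups did (−0.04 ± 0.17, adjusted p = 0.863). RRM2, the small subunit of ribonucleotide reductase, held 5 counts over all 12 libraries and was not tested, while RRM1, the large subunit, held 23243. Whether the counting lost the reads of RRM2 was not tested.

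All 3 transcription factors of the cycle were lower in H9 under both treatments. E2F1, an activator of S phase genes, was at 8.56, 7.77 and 10.7 CPM in H9 vehicle, 7.50, 7.60 and 7.33 CPM in H9 dexamethasone, 27.5, 27.8 and 28.1 CPM in H1 vehicle and 30.3, 25.6 and 31.0 CPM in H1 dexamethasone. FOXM1, an activator of mitotic genes, was at 4.91, 4.35 and 5.78 CPM in H9 vehicle, 5.97, 5.93 and 6.41 CPM in H9 dexamethasone, 28.7, 26.3 and 29.4 CPM in H1 vehicle and 35.8, 29.2 and 32.0 CPM in H1 dexamethasone. MYBL2, the B-MYB subunit of the MMB complex, was at 7.42, 5.22 and 7.82 CPM in H9 vehicle, 6.22, 7.64 and 6.87 CPM in H9 dexamethasone, 38.4, 38.6 and 40.7 CPM in H1 vehicle and 46.2, 40.7 and 44.4 CPM in H1 dexamethasone. In all 3 genes the 6 libraries of a line stayed together, whichever the treatment. The vehicle differences were −1.63 ± 0.13 for E2F1, −2.50 ± 0.13 for FOXM1 and −2.53 ± 0.15 for MYBL2, and the dexamethasone differences −1.95 ± 0.13, −2.40 ± 0.13 and −2.66 ± 0.15. FOXM1 shares 15.9% of its exon bases with ITFG2 on the opposite strand.

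CDK1, its activator and the mitotic cyclins, 5 genes, were lower in H9 under both treatments. CDK1, the kinase itself, was at 7.70, 4.89 and 2.18 CPM in H9 vehicle, 9.13, 9.65 and 7.64 CPM in H9 dexamethasone, 42.5, 40.0 and 46.0 CPM in H1 vehicle and 40.8, 48.2 and 42.3 CPM in H1 dexamethasone. CCNB2 was at 1.66, 1.80 and 1.09 CPM in H9 vehicle, 2.37, 3.01 and 2.23 CPM in H9 dexamethasone, 14.1, 15.7 and 17.3 CPM in H1 vehicle and 14.9, 15.8 and 18.4 CPM in H1 dexamethasone. CCNB1 was at 19.3, 18.0 and 8.43 CPM in H9 vehicle, 19.3, 18.9 and 17.7 CPM in H9 dexamethasone, 59.7, 55.8 and 59.6 CPM in H1 vehicle and 57.3, 58.9 and 64.6 CPM in H1 dexamethasone. All 3 were low in H9 and lowest of all in H9 vehicle culture 3. CCNB2 and CCNB1 encode the 2 main B-type cyclins, yet the first differed by −3.33 ± 0.19 and the second by −1.92 ± 0.22 with vehicle, and by −2.69 ± 0.18 and −1.69 ± 0.22 with dexamethasone. Of the exact motifs searched, the printed promoter of CCNB2 holds 4 CCAAT boxes and a CHR core and that of CCNB1 holds 2 CCAAT boxes. Variant forms of the motifs were not searched, so a CHR of other letters in CCNB1 would be missed. Per kilobase of exon, which allows genes to be compared, CCNB1 was at 5.96 and CCNB2 at 0.541 CPM in H9 vehicle, and at 22.8 and 5.60 CPM in H1 vehicle. CCNA2, the A-type cyclin, differed by −2.84 ± 0.13 and CDC25C, the phosphatase that activates CDK1, by −2.13 ± 0.22 with vehicle.

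**Figure D2:**
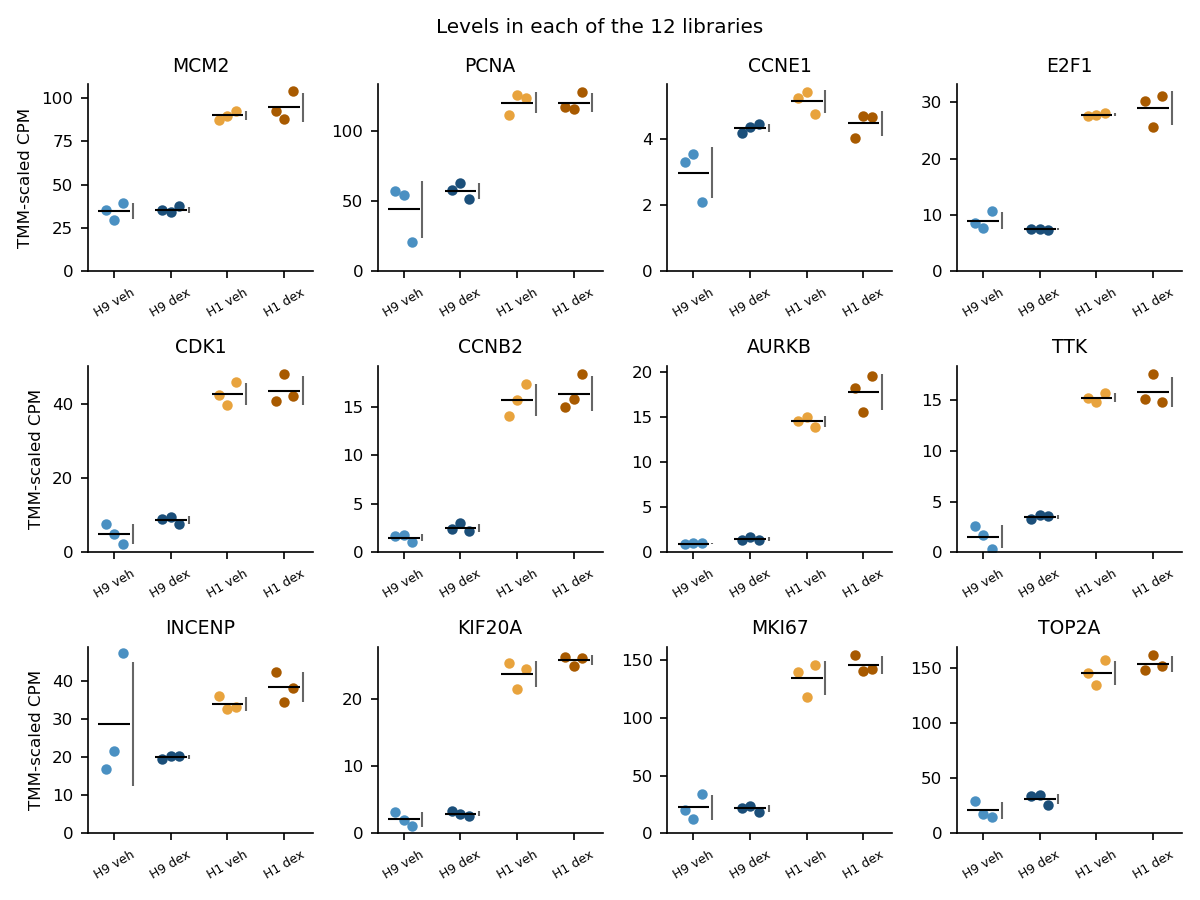
Levels of 12 members (vertical axes, TMM-scaled CPM) in each of the 12 libraries, with 3 points per group from culture 1 on the left to culture 3 on the right; black lines are group means and grey bars 1 SD to each side. In all panels but CCNE1 and INCENP the H9 and H1 libraries do not overlap, and in INCENP the vehicle culture 3 of H9, at 47.3 CPM, is the highest of all libraries.

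Among the mitotic kinases and checkpoint proteins, all 8 were lower in H9 under both treatments. TTK, the kinase at the head of the spindle checkpoint, was at 2.64, 1.71 and 0.340 CPM in H9 vehicle, 3.31, 3.63 and 3.61 CPM in H9 dexamethasone, 15.2, 14.8 and 15.7 CPM in H1 vehicle and 15.1, 17.5 and 14.9 CPM in H1 dexamethasone. PLK1, the polo-like kinase of mitotic entry and exit, was at 8.15, 7.69 and 9.93 CPM in H9 vehicle, 7.85, 7.98 and 6.83 CPM in H9 dexamethasone, 33.6, 28.8 and 28.0 CPM in H1 vehicle and 35.2, 31.4 and 37.5 CPM in H1 dexamethasone. The lines did not overlap in either gene, and the H9 culture 3 that was lowest for TTK was highest among H9 libraries for PLK1. TTK had the largest vehicle difference of this group, −3.19 ± 0.35, and PLK1 the smallest, −1.82 ± 0.13. Both rankings rested on H9 vehicle culture 3. Without it CDC20 had the largest (−2.84, against −2.80 for TTK) and MAD2L1 the smallest (−1.61, against −1.93 for PLK1). CDC20, the activator of the anaphase promoting complex, differed by −3.03 ± 0.21, the checkpoint genes BUB1B and BUB1 by −2.66 ± 0.13 and −2.18 ± 0.13, and MAD2L1 by −1.89 ± 0.24. AURKA and NEK2, kinases of the centrosome, differed by −2.31 ± 0.13 and −2.80 ± 0.28. BUB1B shares 10.2% of its exon bases with a readthrough gene on the same strand and PLK1 shares 12.5% with genes on the other.

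The chromosomal passenger complex held the largest vehicle difference besides SPC25 and, with all libraries, the smallest of all. The smallest rested on H9 vehicle culture 3, without which that of CCNE1, −0.58, was the smallest. AURKB, its kinase, was at 0.933, 1.00 and 1.02 CPM in H9 vehicle, 1.38, 1.75 and 1.34 CPM in H9 dexamethasone, 14.6, 15.1 and 13.9 CPM in H1 vehicle and 18.2, 15.6 and 19.6 CPM in H1 dexamethasone. It was 14.8-fold lower in H9 with vehicle (−3.88 ± 0.16, adjusted p = 1.63e-08) and 11.9-fold lower with dexamethasone (−3.57 ± 0.15, adjusted p = 1.71e-08), the largest differences of the members other than SPC25. INCENP, the scaffold of the same complex, was at 17.0, 21.7 and 47.3 CPM in H9 vehicle, 19.5, 20.3 and 20.3 CPM in H9 dexamethasone, 36.1, 32.6 and 33.2 CPM in H1 vehicle and 42.4, 34.5 and 38.1 CPM in H1 dexamethasone. Its vehicle groups overlapped through H9 culture 3 alone. With that library the vehicle difference was −0.26 ± 0.28 (adjusted p = 0.470), and without it −0.81 (adjusted p = 1.03e-05). With dexamethasone it was −0.93 ± 0.28 (adjusted p = 0.0181), a call lost when H9 dexamethasone culture 1 or 3 or H1 dexamethasone culture 1 was left out. BIRC5, or survivin, the third named subunit, differed by −2.67 ± 0.17 with vehicle. Per kilobase of exon, INCENP was at 6.40 and AURKB at 0.440 CPM in H9 vehicle, and at 7.59 and 6.49 CPM in H1 vehicle.

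The NDC80 complex, 4 subunits that bind kinetochores to microtubules, was compared per kilobase. In H9 vehicle, NDC80 was at 0.529, 0.360 and 0.340 CPM per kb, and in H1 vehicle at 4.36, 4.13 and 5.07 CPM per kb. NUF2, its partner, was at 1.19, 0.783 and 0.566 CPM per kb in H9 vehicle and at 5.16, 5.22 and 5.13 CPM per kb in H1 vehicle. SPC24 was at 1.36, 0.927 and 2.20 CPM per kb in H9 vehicle and at 3.15, 3.51 and 3.12 CPM per kb in H1 vehicle. All 3 genes were lower in H9, and NDC80 was the least abundant of the 3 in every H9 library. The level of NUF2 was 1.01 to 1.26 times that of NDC80 in the H1 libraries and 1.67 to 3.07 times in the H9 libraries. With dexamethasone the H9 libraries held 0.521, 0.685 and 0.458 CPM per kb of NDC80 and the H1 libraries 4.68, 5.03 and 4.43 CPM per kb. The line differences with vehicle were −3.44 ± 0.20 for NDC80, −2.57 ± 0.23 for NUF2 and −1.16 ± 0.24 for SPC24.

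SPC25, the fourth subunit, was listed at 0 in every H9 vehicle library, while the 3 H1 vehicle libraries held 175 counts together, or 2.29, 2.37 and 2.36 CPM. Against a floor of 3 counts over the H9 vehicle group, it was at least 49.4-fold lower in H9. With dexamethasone the H9 libraries held 1 count and the H1 libraries 155, a ratio of H1 to H9 of 144 with an exact 95% interval of 25.4 to 5720 that covers counting error only. In H1 vehicle SPC25 was at 1.24, 1.29 and 1.28 CPM per kb, also below its 3 partners. The gene lies at chr2:168834132-168913371 on the minus strand (GRCh38, GENCODE 29). Its printed promoter holds 2 CHR cores and 2 CCAAT boxes. That of NDC80 holds 1 CHR core, at the same distance from the RefSeq start as 1 of SPC25 and in the opposite orientation. The RefSeq start used for SPC25 lies inside the GENCODE span, and another start would give another distance. Since genes such as TUBB are listed at 0 in all libraries, a loss in the counting could touch SPC25, and this was not tested. Of the 12 other tested genes within 1 Mb, 1 was lower and 1 higher in H9 with vehicle.

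**Figure D3:**
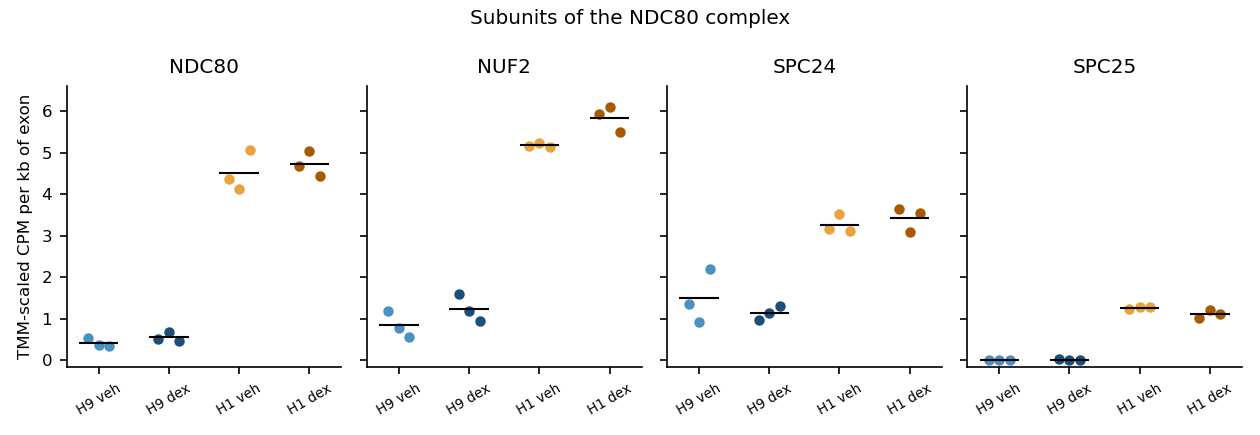
Levels of the 4 subunits of the NDC80 complex (vertical axis, TMM-scaled CPM per kb of exon) in each library, by group; black lines are group means. SPC25 is at 0 in 5 of the 6 H9 libraries and between 1.03 and 1.29 CPM per kb in the H1 libraries.

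CENPA, CENPF and CENPE are the remaining centromere and kinetochore genes. CENPA, the histone H3 variant of centromeres, differed by −1.51 ± 0.18 with vehicle, and CENPF, a large kinetochore protein, by −2.10 ± 0.24. CENPE, a kinetochore motor, was at 7.46, 3.72 and 6.67 CPM in H9 vehicle, 9.48, 9.77 and 7.83 CPM in H9 dexamethasone, 12.2, 21.5 and 11.4 CPM in H1 vehicle and 14.9, 26.5 and 9.81 CPM in H1 dexamethasone. The groups did not overlap, but culture 2 stood well above its sisters in both H1 groups. The difference was −1.34 ± 0.37 with vehicle (adjusted p = 0.0114), a call lost without H1 vehicle culture 2, and −0.92 ± 0.36 with dexamethasone (adjusted p = 0.0567).

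All 5 spindle genes were lower in H9 under both treatments. KIF20A, a kinesin of cytokinesis, was at 3.24, 1.96 and 1.09 CPM in H9 vehicle, 3.36, 2.84 and 2.61 CPM in H9 dexamethasone, 25.3, 21.6 and 24.4 CPM in H1 vehicle and 26.3, 24.9 and 26.1 CPM in H1 dexamethasone. TPX2, which activates AURKA on the spindle, was at 12.3, 11.7 and 18.7 CPM in H9 vehicle, 14.6, 15.1 and 14.1 CPM in H9 dexamethasone, 56.9, 52.2 and 59.2 CPM in H1 vehicle and 59.5, 57.1 and 62.6 CPM in H1 dexamethasone. No library of one line reached the other. KIF20A had the largest vehicle difference, −3.44 ± 0.25, and TPX2 the smallest, −1.99 ± 0.15. Without H9 vehicle culture 3 the smallest was that of KIF23, −2.15, against −2.22 for TPX2. ASPM, a spindle pole protein of dividing neural progenitors, differed by −2.82 ± 0.25, and the motors KIF11 and KIF23 by −2.42 ± 0.13 and −2.16 ± 0.11.

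Both classical marks of proliferating cells were lower in H9 under both treatments. MKI67, which coats mitotic chromosomes and is the antigen Ki-67, was at 20.5, 12.9 and 34.4 CPM in H9 vehicle, 22.2, 24.1 and 18.4 CPM in H9 dexamethasone, 140, 118 and 146 CPM in H1 vehicle and 154, 141 and 142 CPM in H1 dexamethasone. TOP2A, the topoisomerase that untangles sister chromosomes, was at 29.8, 17.6 and 15.2 CPM in H9 vehicle, 33.6, 34.6 and 25.6 CPM in H9 dexamethasone, 145, 135 and 157 CPM in H1 vehicle and 148, 162 and 152 CPM in H1 dexamethasone. The lines were apart in both genes, although H9 vehicle culture 3 was highest of its group for MKI67 and lowest for TOP2A. The vehicle differences were −2.58 ± 0.27 and −2.80 ± 0.22, and the dexamethasone differences −2.76 ± 0.27 and −2.30 ± 0.21. Without H9 vehicle culture 3 the order with vehicle was reversed, at −3.01 ± 0.16 for MKI67 and −2.62 ± 0.17 for TOP2A.

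Other genes of the cycle, from lists of related pathways, were mostly lower in H9 too, where 21.2% of all tested genes were lower and 25.7% higher. With vehicle, 21 of 24 tested further kinetochore genes passed as lower, among them KNL1 (−3.10 ± 0.19), HJURP (−2.87 ± 0.20) and SKA3 (−2.82 ± 0.31), and none as higher. Of 23 origin and replisome genes 17 were lower and 1 higher, and MCM10, ORC1 and CDC45 differed by −2.88 ± 0.15, −2.57 ± 0.18 and −2.12 ± 0.22. In the list of RB, E2F and DREAM genes 14 of 15 were lower, but with a median of −0.65; E2F8, at −3.12 ± 0.26, stood far from the others named, LIN9 at −1.11 ± 0.13 and E2F7 at −1.01 ± 0.18. Of 9 cytokinesis genes 8 were lower, led by CEP55 (−2.46 ± 0.18), KIF4A (−2.10 ± 0.20) and KIF14 (−2.07 ± 0.19). Cohesin and condensin genes were lower for 9 of 13, with the condensin subunits NCAPG and NCAPH at −2.93 ± 0.16 and −2.33 ± 0.16 and SMC4 at −1.88 ± 0.16. Genes of the anaphase promoting complex and its regulators were lower for 8 of 17 with a median of −0.34 (−0.20 without H9 vehicle culture 3). Those that led were not subunits of the complex. They were the ubiquitin enzyme UBE2C (−3.17 ± 0.22), the separase ESPL1 (−3.14 ± 0.16) and the inhibitor FBXO5 (−2.30 ± 0.23). Without H9 vehicle culture 3 the subunits ran from −0.52 (CDC23) to 0.05 (ANAPC4).

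Regulators of G1 lay on both sides of 0. Of 8 tested G1 cyclins and kinases 5 were lower and 1, CCND2, was higher in H9 (0.52 ± 0.10, adjusted p = 0.000988); without H9 vehicle culture 3, CCNH passed as higher too. CDK2 was at −1.62 ± 0.27, CDK6 at −0.96 ± 0.12 and CDK4 at −0.80 ± 0.18. Of 7 CDK inhibitors 3 were lower and 2 higher. CDKN2C, which inhibits CDK4 and CDK6, was lower in H9 (−2.09 ± 0.18), as was CDKN3 (−1.64 ± 0.37), while CDKN2D, a close relative of CDKN2C, was higher (0.93 ± 0.14). The mean of CDKN2D was 56.2 ± 10.3 CPM in H9 vehicle and 29.6 ± 3.32 CPM in H1 vehicle (SD, n = 3 each).

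Markers of other cell types moved with the line as well, and their part in the members' difference was not tested. These counts too stand beside the 25.7% of all tested genes that were higher and the 21.2% that were lower in H9 with vehicle. Of 10 neuron markers 6 were higher in H9 and 1 lower, with a summed level of 5140 to 6050 CPM in the 6 H9 and 3350 to 3880 CPM in the 6 H1 libraries. The neuronal splicing factor RBFOX3 differed by 2.16 ± 0.31 and the neurofilament genes NEFL and NEFM by 2.05 ± 0.21 and 1.13 ± 0.39. NEFM was at 151, 143 and 540 CPM in H9 vehicle cultures 1 to 3, and differed by 0.22 ± 0.07 (adjusted p = 0.0184) without culture 3. Of 9 astrocyte markers 5 were higher in H9 and none lower, led by ALDH1L1 (4.15 ± 0.31), AGT (3.06 ± 0.21) and the water channel AQP4 (2.32 ± 0.43), with sums of 1550 to 2560 CPM in H9 and 866 to 1060 CPM in H1. Of 11 markers of mesenchymal cells and fibroblasts 5 were lower in H9 and 2 higher, with sums of 339 to 540 CPM in H9 and 1590 to 3500 CPM in H1. POSTN, COL1A2 and COL1A1, genes of the extracellular matrix, differed by −5.98 ± 0.76, −5.80 ± 0.79 and −5.46 ± 0.38. The list did not move as 1. Without H9 vehicle culture 3, 5 were again lower and 2, TWIST1 (2.40 ± 0.27) and THY1 (0.38 ± 0.10), were higher. PDGFRA, PDGFRB, DCN and LUM did not pass in that fit. COL1A1 was at 32.1 ± 12.9 CPM in H9 vehicle and 1407 ± 363 CPM in H1 vehicle (SD, n = 3 each).

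The call of 1 neural progenitor marker rested on H9 vehicle culture 3. Of 8 tested, SOX1 (−0.80 ± 0.15) and SOX9 (−0.46 ± 0.11) were lower in H9 and NES, an intermediate filament gene, was higher (1.38 ± 0.50, adjusted p = 0.0384). NES was at 1060, 1090 and 5550 CPM in H9 vehicle cultures 1 to 3. Without culture 3 it differed by 0.13 ± 0.10 (adjusted p = 0.276), and with dexamethasone by −0.19 ± 0.49 (adjusted p = 0.790). Without that culture 1 of the 8, PAX6, was higher and 3, SOX1, SOX9 and FABP7, were lower. Progenitor sums were 8070 CPM in culture 3, 4710 to 5220 CPM in the other H9 libraries and 4480 to 5230 CPM in H1, and SOX2 and HES5 were listed at 0 in all groups. Of the neural crest genes FOXD3 (2.70 ± 0.86) and ERBB3 (1.28 ± 0.38) were higher and TFAP2A (−1.82 ± 0.35) lower in H9. Their levels were low, with H9 vehicle means of 0.88 CPM for FOXD3, 0.99 for ERBB3 and 0.78 for TFAP2A. FOXD3 was at 0.487, 0.46 and 1.70 CPM in H9 vehicle cultures 1 to 3. With dexamethasone TFAP2A passed (adjusted p = 0.0091), but FOXD3 (adjusted p = 0.160) and ERBB3 (adjusted p = 0.257) did not. Of the endothelial genes KDR was lower (−0.67 ± 0.21), and of the pluripotency genes DPPA4 was higher (4.72 ± 0.49) and LIN28A lower (−1.26 ± 0.42). No microglial marker was abundant enough to be tested.

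**Figure D4:**
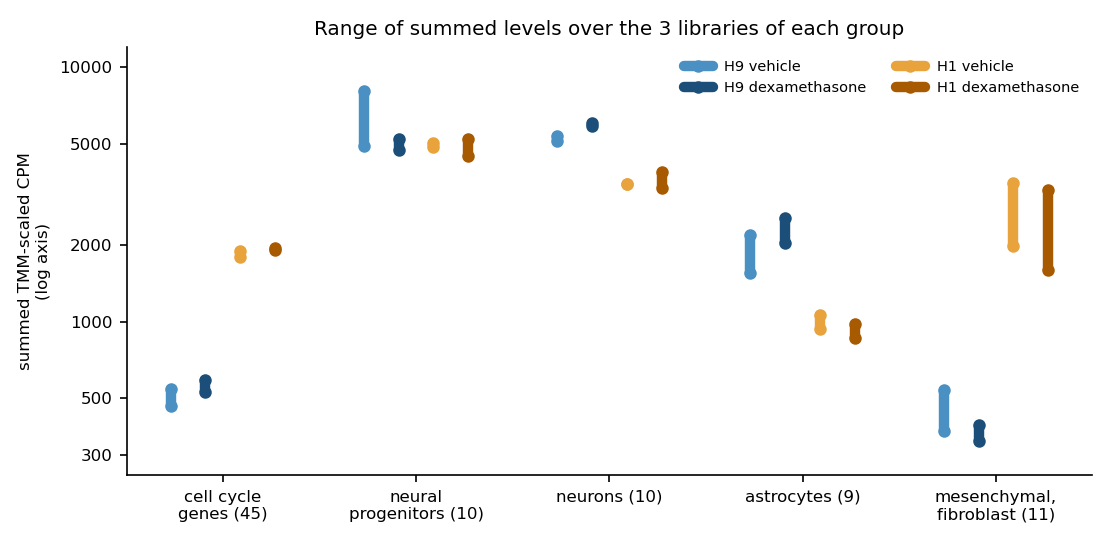
Range over the 3 libraries of each group of the summed TMM-scaled CPM (vertical log axis) of the 45 members and of marker genes of 4 cell types, with the number of genes in brackets. The members' sums were 467 to 589 CPM in H9 and 1795 to 1954 CPM in H1; the neuron and astrocyte sums lie higher in H9 and the mesenchymal sums higher in H1.

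Dexamethasone changed no member past the threshold. In edgeR 0 of 44 passed in H9, in H1, over both lines or for the difference between the lines' responses, where 0.0673%, 0.0505%, 0.101% and 0% of all tested genes did. DESeq2 and limma-voom also called 0 members in each of the 4 comparisons. At an unadjusted p under 0.05 there were 10 members in H9, where 16.3% of all genes were, 1 in H1 (2.95%), 8 over both lines (7.49%) and 2 for the difference (7.46%). Single libraries moved these counts: in H9 to 21 without H9 vehicle culture 1 and to 4 without H9 dexamethasone culture 2, and over both lines to 17 without H9 vehicle culture 1 and to 3 without H9 vehicle culture 2 or H1 vehicle culture 1. In H1 they ran from 0 to 4, the highest without H9 vehicle culture 3. For the difference they ran from 1 to 14, the highest without H9 vehicle culture 1. The share of all genes under that unadjusted p was not computed for these fits. The shifts therefore cannot be read as particular to the members. The signs leaned upward: 36 members were above 0 in H9, 36 in H1 and 38 over both lines, against 47.6%, 49.2% and 47.3% of all tested genes. The sizes were small, with a median log2 fold change of dexamethasone minus vehicle of 0.26 in H9, 0.06 in H1 and 0.16 over both lines. Without H9 vehicle culture 3 there were still 0 members past the threshold over both lines, 42 of 44 were above 0 and the median was 0.14. Of all 18098 genes tested in that fit, 0.486% passed as higher and 0.287% as lower. Above 0 were 48.6% of them, and their median was −0.003.

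The 3 members with the smallest p over both lines were AURKB, CCNB2 and FOXM1. For AURKB the levels given above show every dexamethasone library above every vehicle library in each line, from at most 1.02 to at least 1.34 CPM in H9 and from at most 15.1 to at least 15.6 CPM in H1. Its change was 0.45 ± 0.11 over both lines (unadjusted p = 0.00151, adjusted p = 0.297), 0.60 ± 0.18 in H9 and 0.29 ± 0.12 in H1. CCNB2 did not overlap in H9 and overlapped in H1, with changes of 0.71 ± 0.20 and 0.06 (adjusted p = 0.579 over both lines). FOXM1 did not overlap in H9 and overlapped in H1, with changes of 0.30 ± 0.13 and 0.20 (adjusted p = 0.598 over both lines). Without H9 vehicle culture 3 the smallest adjusted p over both lines was 0.119, for FOXM1.

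In H9, 9 members had every dexamethasone library above every vehicle library, where 9.76% of all tested genes did: MCM7, CCNE1, FOXM1, CCNB2, TTK, MAD2L1, CENPE, AURKB and KIF23. E2F1 alone was lower in every dexamethasone library, against 11.6% of all genes. In H1, 4 members, MYBL2, AURKA, NUF2 and AURKB, were higher without overlap (7.15% of all genes) and 2, CCNE1 and SPC25, were lower (6.98%). The largest changes in H9 other than SPC25 were those of TTK, 1.08 ± 0.37, and CDK1, 0.80 ± 0.29. Both had their lowest value in H9 vehicle culture 3, and without it TTK changed by 0.69 (adjusted p = 0.124) and CDK1 by 0.48 (adjusted p = 0.278). TOP2A, at 0.58 ± 0.21 in H9, passed in 1 fit of those run, without H9 vehicle culture 1 (0.97, adjusted p = 0.0483).

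CCNE1 was the member whose libraries parted in opposite directions. In H9 the vehicle cultures ended at 3.55 CPM and the dexamethasone cultures began at 4.20 CPM, a change of 0.51 ± 0.18. In H1 the dexamethasone cultures ended at 4.70 CPM and the vehicle cultures began at 4.77 CPM, a change of −0.20. The difference of the responses was 0.71 ± 0.25 (unadjusted p = 0.0143, adjusted p = 0.548), so it did not pass over all genes. Without H9 vehicle culture 3, the lowest library of the gene, the change in H9 was 0.34 (adjusted p = 0.403).

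**Figure D5:**
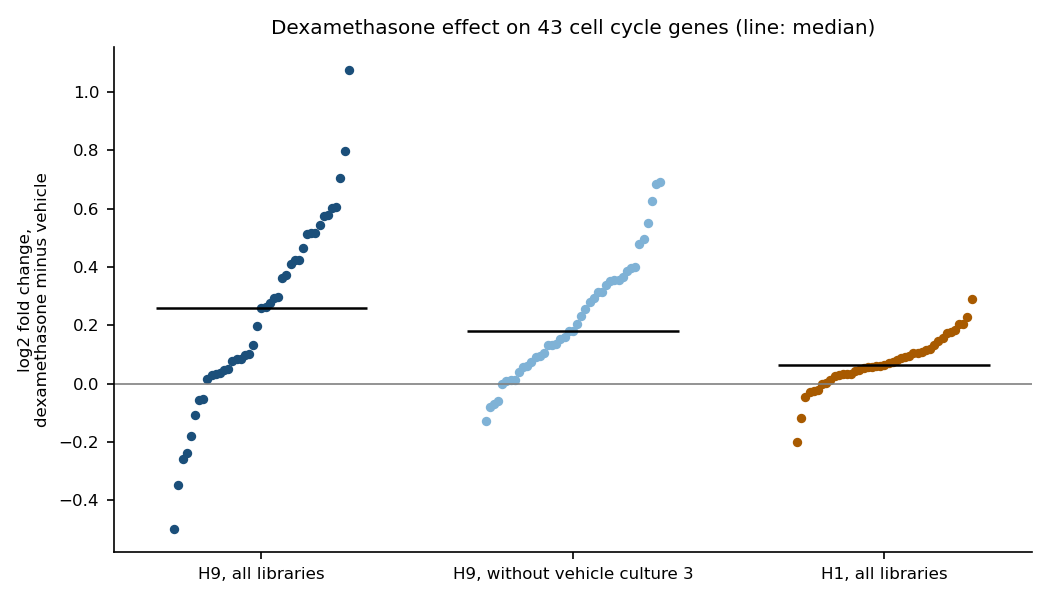
Log2 fold change of dexamethasone minus vehicle (vertical axis) of 43 members, SPC25 left out, sorted within each column; black lines are the medians of the drawn genes. The H9 column spreads from −0.50 (INCENP) to 1.08 (TTK), narrows without H9 vehicle culture 3, and the H1 column lies between −0.20 (CCNE1) and 0.29 (AURKB).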

How the data were processed

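RNA of 12 cultures was counted, 3 sister cultures in each of 4 groups. The deposited files hold raw counts per gene, 1 file per library, in whole numbers. Per the submitters' processing notes the authors used STAR 2.5.3a and HTSeq, and name hg38 and GRCh38.p10 as builds. Not given in the sources used here are which gene annotation was counted, whether strand was used, and how multiply mapped reads were handled. Depth was 14751168 to 27505804 counts per library. The members and the lists of pathways and markers were chosen with earlier results of these data known.

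From the counts, genes were kept by filterByExpr (17819 of 63925) and libraries scaled by TMM in edgeR 4.0.16. Contrasts were tested by quasi-likelihood F in a model of the 4 group means (12 libraries, 8 residual degrees of freedom); p-values were adjusted by Benjamini-Hochberg over every gene tested, at a threshold of 0.05. Standard errors were derived from F and the log2 fold change. Also run were DESeq2 1.42.0, limma-voom (limma 3.58.1), RLE scaling, 2 other filters, other library sizes, separate fits by line or treatment, a culture number term, and fits without each library. Levels per kilobase used the union of exons of GENCODE 29. Promoter windows came from RefSeq (GRCh38.p14), a gene counting as a match if any of its windows matched. The test was checked on simulated counts. Values per library are given for the members with the largest and smallest vehicle difference of each role, for the NDC80 subunits and the best known genes, and for the 3 with the smallest p over both lines; from each list, the 3 genes with the largest difference past the test are named. CENPE, CCND2, CCNH, PAX6, FABP7, the non-overlapping members and the genes listed at 0 were named after their values were seen. So were TWIST1, THY1, PDGFRA, PDGFRB, DCN, LUM, CDC23 and ANAPC4. Software was R 4.3.3, Python 3.11.15 and matplotlib 3.10.9.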

Additional observations from a re-analysis of the deposited data

How the results depend on the processing

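The count of members lower in H9 was 42 to 44 with vehicle and 41 to 43 with dexamethasone over the 20 alternatives run for each, against 43 and 42 as reported. Over the fits that left out 1 library, the dexamethasone count in H9 was 0 to 1; the single call, TOP2A, came without H9 vehicle culture 1. It was 0 under every other alternative run in H9, and 0 under all those run in H1, over both lines and for the difference. Line differences were recomputed for the members chosen by the rule above, CENPE not among them. Of these 880 values, 876 kept their direction and their side of the threshold and none reversed. The other 4 concern INCENP, given in the report. Over the 12 fits that left out 1 library, CENPE passed in 11 with vehicle and in 4 with dexamethasone. Same-numbered cultures did not deviate together, with correlations of −0.159 to 0.179 over 18 pairs and 4 of them above 0.1, so the culture numbers were not taken to pair libraries. With culture number as a replicate block, the counts were 0, 0, 0 and 0 for dexamethasone and 43 and 42 for the lines. No sister pair agreed within sampling noise (chi-square per degree of freedom of at least 3.96). SPC25 held 0 and 1 counts in the H9 groups and RRM2 held 5 counts over all 12 libraries.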

Other observations

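Some long transcripts of mitosis shared a pattern among H1 cultures, chosen after the values were seen. CENPF was at 91.5, 110.6 and 95.4 CPM in H1 vehicle and at 102.7, 126.3 and 73.6 CPM in H1 dexamethasone cultures 1 to 3. ASPM was at 26.8, 28.6 and 25.1 CPM and at 32.0, 34.8 and 18.8 CPM. Like CENPE, both were highest in culture 2 of each H1 group and, with dexamethasone, lowest in culture 3. MKI67, whose exons are longer still at 12807 bases, was lowest in culture 2 of both H1 groups. The culture numbers are not known to pair libraries between treatments.

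Per kilobase of exon the order of the members differed between the lines in places. PCNA ranked first in all 4 groups, at 30.0 CPM per kb in H9 vehicle and 81.6 CPM per kb in H1 vehicle. INCENP ranked 7 in H9 vehicle and 19 in H1 vehicle, and AURKB 39 and 21. These ranks are of group means and were not tested.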
